A study of Mus musculus with 12 samples.

Results

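Livers of mice that carry an Ifng knockout were compared with and without Tgfb1, to see what loss of transforming growth factor beta 1 did to liver gene expression where interferon gamma could not be made. The 3 arrays titled IFNko TGFB1 KO were set against the 3 arrays titled INFko TGFB+, of which 1 has no number in its title and is called replicate 1 here. These 6 of the 12 arrays of the series were chosen by their titles alone. Per the labels, each array held liver RNA from BALB/c mice, and the series' design text gives 3 mice for each group, so 1 mouse per array. The Ifng knockout was shared by both groups. The design text writes the double mutant as TGF-beta 1-/- with IFN-gamma-/- and speaks of TGF-beta 1+/+ littermates as controls, but the titles write only TGFB+, and age and sex are not given. The other 6 arrays, 3 of Balb/c WT and 3 of TGFB KO liver, have intact Ifng and were used for the same comparison with interferon gamma present, which shares no array with the comparison described here.

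TGF-beta 1 is a secreted cytokine that restrains the activation of T cells, drives hepatic stellate cells to make matrix, and holds back the division of hepatocytes. Mice without it develop inflammation of several organs early in life, and on the BALB/c background the liver is a main site. Interferon gamma, made mainly by T cells and NK cells, induces a set of genes that includes the immunity-related GTPases (Irgm1, Irgm2, Igtp), the guanylate-binding proteins (Gbp genes), MHC class II genes and the chemokine Cxcl9.

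Each array gave a signal intensity for 45101 probe sets. After quantile normalization, the level of 12755 genes, 1 probe set each, was compared as log2(signal + 16) with limma, with p-values adjusted over all of these genes by the Benjamini-Hochberg method and called at 0.05. Differences are IFNko TGFB1 KO minus INFko TGFB+ on that log2 scale, ± the standard error of the model (n = 3 mice per group), and the added 16 makes them smaller than the true change for dim genes. Signals are the deposited values, in the order of replicates 1, 2 and 3, and are compared only within a gene.

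The 6 arrays were not equal in quality. IFNko TGFB1 KO replicate 1 had a median signal of 61.3, against 33.8 to 42.6 on the other 11 arrays of the series, and its rank correlations with the other arrays of its group were 0.802 and 0.809, where IFNko TGFB1 KO replicates 2 and 3 correlated at 0.898 and the INFko TGFB+ arrays at 0.903 to 0.912. The 3′ to 5′ signal ratio of Actb, a sign of RNA quality, was 2.05 to 2.25 in the INFko TGFB+ group and 1.61 to 1.76 in the IFNko TGFB1 KO group, while that of Gapdh was 0.652 to 0.67 and 0.748 to 0.894, the opposite order. Xist, expressed from the inactive X chromosome, and Eif2s3y, a Y-linked gene, gave 1 female and 2 males in each group, the females being INFko TGFB+ replicate 1 and IFNko TGFB1 KO replicate 2. Weighting the arrays by their fit gave IFNko TGFB1 KO replicates 1 and 2 the lowest weights of the 12 arrays, 0.428 and 0.383, and 3095 calls against 3292 without weights; beyond this, median centring and leaving out each array in turn, the part of array quality in the results was not tested.

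The targeted gene was lower in the mutants. The probe set used for Tgfb1 gave 221, 164 and 180 in the INFko TGFB+ livers and 24.9, 52.1 and 43.8 in the IFNko TGFB1 KO livers, a difference of -2.04 ± 0.44 (adjusted p = 0.00556). A second Tgfb1 probe set, with signals of 41.3, 28.6 and 41.5 against 97.9, 44.6 and 22.2, differed by 0.07 ± 0.31. Ifng, although knocked out in both groups, gave 7.6, 1.1 and 7.5 in the INFko TGFB+ livers and 83.9, 54.3 and 44.6 in the IFNko TGFB1 KO livers (1.63 ± 0.30, adjusted p = 0.00243). Whether its probe set lies in the disrupted part of the gene is not given, so it does not check the Ifng genotype.

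After quantile normalization, which gives each array the same distribution of values, about as many genes were called higher as lower. Of 12755 genes, 3292 passed (25.8%), 1619 of them higher (12.7%) and 1673 lower (13.1%) in the IFNko TGFB1 KO livers, and 4761 had an unadjusted p under 0.05. A change of at least 2-fold was called for 972 higher and 925 lower genes, and of at least 8-fold for 48 higher and 24 lower. The median difference over all genes tested was -0.01. Centring each array on its median in place of quantile normalization moved that median to -0.15 and the split to 988 higher and 1866 lower. Without IFNko TGFB1 KO replicate 1 the same centring gave 1453 higher and 1469 lower. The deposited scaling gave 1828 higher and 1539 lower, so the balance depended on the normalization. Leaving out IFNko TGFB1 KO replicate 1 alone left 1523 higher and 1494 lower genes, and leaving out INFko TGFB+ replicate 2 left 1089 lower ones. The values of the 3 and 3 arrays did not overlap for 5803 of all genes tested (45.5%), and for 1604 of the higher and 1655 of the lower calls.

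**Figure D1:**
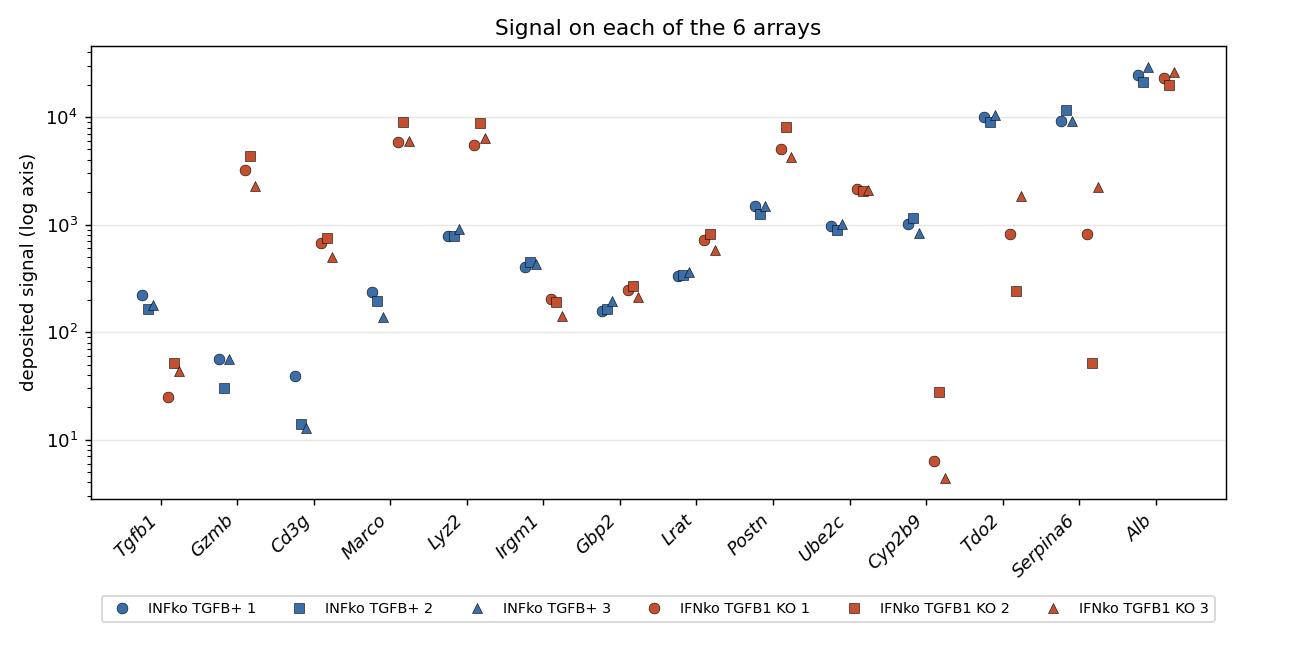
Deposited signal of 14 genes on each of the 6 arrays (log axis; blue, INFko TGFB+; red, IFNko TGFB1 KO; circle, square and triangle are replicates 1, 2 and 3). Gzmb, Cd3g, Marco and Lyz2 are higher and Irgm1, Cyp2b9, Tdo2 and Serpina6 lower on each red array than on any blue one, while the Alb points of the groups overlap, and for Tdo2 and Serpina6 the lowest red point is replicate 2.

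Genes of T cells and their killing machinery stood far above the control level. Cd3g, a signalling chain of the T cell receptor, gave 39.4, 14.1 and 12.9 in the INFko TGFB+ livers and 676, 753 and 501 in the IFNko TGFB1 KO livers (4.14 ± 0.28, adjusted p = 6.99e-06). Cd8b1, a chain of the CD8 co-receptor, gave 0.6, 0.9 and 11.6 against 162, 188 and 182 (3.14 ± 0.30, adjusted p = 5.52e-05). The groups were far apart for both, with the controls at the dim end of the array. Of the 20 listed genes of the receptor complex and its co-receptors 16 were tested. Of these 15 rose and none fell, where 12.7% of all genes were higher, and their median difference was 2.15. The summed signal of the 16 was 569, 376 and 460 in the controls and 4044, 5092 and 3269 in the mutants. Genes were kept for testing by their mean level over all 12 arrays, so a gene dim in the controls entered only through brighter arrays. Counts among tested members, here and in the lists that follow, therefore lean towards rises for such genes. In whole liver RNA, more cells of a type and more RNA per cell cannot be told apart.

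The granule genes of cytotoxic lymphocytes showed the same order. Gzmb, a granule protease that kills target cells, had signals of 56.3, 30.5 and 56.0 in the controls and 3248, 4333 and 2269 in the mutants (5.73 ± 0.28, adjusted p = 5.49e-07). Srgn, the proteoglycan that packs granule proteins, gave 390, 496 and 473 against 2601, 3941 and 2733 (2.87 ± 0.25). The lowest mutant signal of Gzmb was many times the highest control signal. In all, 13 of 15 tested granule and effector genes rose and none fell, with a median of 2.48. Of 20 listed NK cell genes 15 had a probe set and 7 of these were bright enough to be tested. Of the 7, 6 rose, among them Klrd1 (2.15 ± 0.23), Klrc1 (2.12 ± 0.38) and Klrg1 (1.74 ± 0.32), lectin receptors found on NK cells and on activated CD8 T cells. Ncr1, Klrb1c and the listed Klra genes were not tested. Genes dim in the controls were tested only where other arrays were bright, so the 6 of 7 cannot describe the NK cell list.

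Regulators of T cell activation moved with the receptor genes. Stat4, the factor that relays IL-12, gave 21.5, 19 and 18.7 against 209, 222 and 168 (2.42 ± 0.24, adjusted p = 7.87e-05). The Ikaros family members Ikzf1 (1.85 ± 0.23), Ikzf2 (1.96 ± 0.26) and Ikzf3 (2.49 ± 0.36) and the AP-1 family factor Batf (2.44 ± 0.38) also rose, and 11 of 14 tested T cell transcription factors were higher and 1 lower. Among checkpoint and costimulatory genes 15 of 20 rose and none fell. Tnfrsf9, the costimulator 4-1BB, gave 6.4, 8.2 and 11.2 against 251, 186 and 143 (2.96 ± 0.30), and the inhibitory receptor Pdcd1 gave 2.2, 1.6 and 3.8 against 152, 78.0 and 108 (2.59 ± 0.39). Ctla4 (2.20 ± 0.28) and Icos (1.77 ± 0.24) were higher as well, so that activating and inhibitory receptors rose together.

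Genes that carry lymphocytes and monocytes into tissue were also higher. Cxcr6, a chemokine receptor of liver-homing T cells, gave 56.7, 33.3 and 20.3 in the controls and 661, 711 and 550 in the mutants (3.65 ± 0.30, adjusted p = 2.12e-05). Ccr2, the receptor of inflammatory monocytes, gave 35.9, 47.9 and 39.4 against 395, 535 and 451 (2.99 ± 0.20), with the mutant signals within a narrow range. The integrin chains Itgb2 (3.07 ± 0.21), Itgal (2.92 ± 0.25) and Itga4 (1.97 ± 0.20) rose, and on the endothelial side Vcam1, the ligand of the Itga4 integrin, gave 497, 511 and 522 against 2461, 4390 and 2288 (2.64 ± 0.25, adjusted p = 5.47e-05). Selp (1.72 ± 0.19) and Icam1 (1.34 ± 0.18) rose with it, but in all 4 of 11 endothelial adhesion genes passed. Homing genes counted 11 higher and 1 lower of 16 tested.

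Chemokine ligands rose in number, but not each of them. Ccl5, a T cell chemokine, gave 76.1, 70.0 and 49.6 against 1947, 2730 and 1978 (4.85 ± 0.21, adjusted p = 3.66e-07). Ccl8, a monocyte chemokine, gave 24.9, 27.3 and 33.3 against 715, 3084 and 549 (4.63 ± 0.58), with replicate 2 of the mutants far above the other two. Ccl24, an eosinophil chemokine that IL-4 and IL-13 induce in macrophages, was 112, 99.3 and 135 against 522, 742 and 320 (1.97 ± 0.27). Cxcl9, a chemokine that depends on interferon gamma, was 42.3, 55.8 and 43.3 against 76.5, 54.0 and 70.0 (0.13 ± 0.29, adjusted p = 0.777), and the groups overlapped. Of 23 tested chemokine genes 16 rose and 1 fell, with a median of 1.81.

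**Figure D2:**
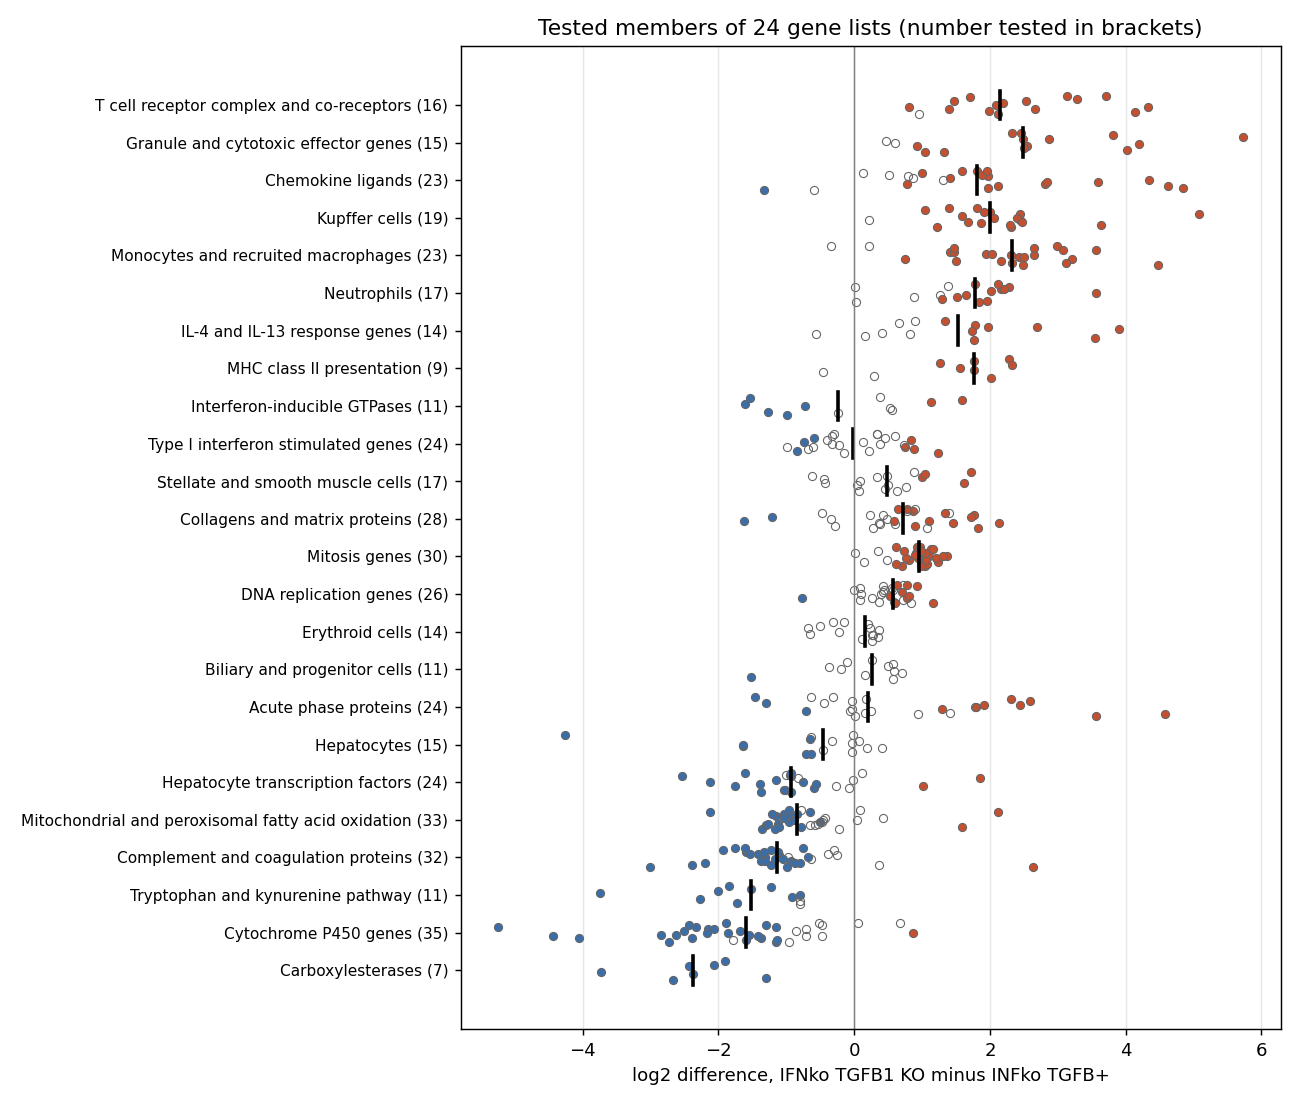
Log2 difference, IFNko TGFB1 KO minus INFko TGFB+, of each tested member of 24 gene lists (number tested in brackets); filled points passed at an adjusted p of 0.05 (red higher, blue lower), open points did not, and the black bar is the list's median. T cell, macrophage and chemokine lists lie to the right, metabolic lists to the left, and the interferon-inducible GTPases lie on both sides of 0.

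Macrophage genes rose almost without exception. Marco, a scavenger receptor, gave 236, 194 and 138 in the controls and 5922, 8992 and 6000 in the mutants (5.08 ± 0.21, adjusted p = 3.66e-07). Cd5l, a secreted macrophage protein, gave 454, 515 and 424 against 4870, 6671 and 5262 (3.64 ± 0.18), and the complement subunits C1qa (2.44 ± 0.16), C1qb (2.31 ± 0.15) and C1qc (2.44 ± 0.20) moved by nearly the same amount. Of 19 Kupffer cell genes, all tested, 18 rose; the exception was the iron exporter Slc40a1, at 4607, 4584 and 4412 against 4156, 5032 and 4423 (0.21 ± 0.18, adjusted p = 0.416). Of 23 tested genes of monocytes and recruited macrophages 21 rose, with a median of 2.33. Among these, Lyz2, a lysozyme, gave 790, 782 and 920 against 5518, 8897 and 6415 (3.08 ± 0.21), and Lgals3, a galectin of activated macrophages, 197, 152 and 212 against 3740, 5761 and 3343 (4.47 ± 0.24). The Ms4a membrane proteins of macrophages and T cells counted 8 higher of 10, led by Ms4a4b at 64.3, 61.3 and 61.1 against 2166, 2609 and 1974 (4.92 ± 0.28), and the Gimap GTPases of lymphocytes 5 of 8, led by Gimap4 (2.18 ± 0.16).

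Genes that IL-4 and IL-13 induce in macrophages were part of this rise. Mmp12, macrophage elastase, gave 3.7, 2.3 and 3.1 against 279, 431 and 184 (3.90 ± 0.41, adjusted p = 0.000102). Clec7a, the beta-glucan receptor Dectin-1, gave 113, 107 and 129 against 1490, 1930 and 1092 (3.54 ± 0.25), and Mrc1, the mannose receptor, 961, 939 and 866 against 1656, 2979 and 1781 (1.33 ± 0.23). The groups were apart for these genes. Arg1, which is also a urea cycle enzyme of hepatocytes, was 8771, 9687 and 7896 against 4524, 5383 and 7022 (-0.57 ± 0.25, adjusted p = 0.119). Of 14 tested genes 8 rose and none fell. Il13ra2, a decoy receptor for IL-13, rose from 6.3, 3.2 and 14.2 to 149, 168 and 120 (2.60 ± 0.31), where with intact Ifng the TGFB difference was -0.54 ± 0.31; the adjusted p of the difference between these effects was 0.0064.

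Granulocyte genes varied between the mutant livers. Lcn2, a neutrophil and hepatocyte acute phase protein, gave 655, 718 and 871 against 5778, 10930 and 9734 (3.56 ± 0.33, adjusted p = 4.73e-05). Mpo, a neutrophil granule enzyme, gave 301, 308 and 474 against 778, 2660 and 1483 (2.11 ± 0.48), and S100a8, a calprotectin subunit, 3164, 3124 and 4773 against 7651, 16495 and 11504 (1.84 ± 0.35). Replicate 2 of the mutants was highest and replicate 1 lowest for all 3. Of 17 tested neutrophil genes 12 rose, and 15 did without IFNko TGFB1 KO replicate 1. The count was 8 without INFko TGFB+ replicate 2, without IFNko TGFB1 KO replicate 2 or with median centring. It was 4 with the replicate number as a block and 3 with male mice alone. The eosinophil granule gene Prg2 gave 655, 314 and 420 in the controls and 12.4, 2632 and 725 in the mutants (-0.34 ± 1.28, adjusted p = 0.876), so that the mutants lay on both sides of the controls; without IFNko TGFB1 KO replicate 1 the difference was 1.71 ± 0.53 (adjusted p = 0.0387). Of 17 tested B cell and plasma cell genes 3 rose, where 12.7% of all genes were higher. The count was 0 without INFko TGFB+ replicate 2 or 3 or IFNko TGFB1 KO replicate 2. It was 1 without IFNko TGFB1 KO replicate 3 or INFko TGFB+ replicate 1, and 5 without IFNko TGFB1 KO replicate 1. By limma no erythroid gene of 14 tested passed, none had an unadjusted p under 0.05, and 1 passed without IFNko TGFB1 KO replicate 1.

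The interferon-inducible GTPases did not follow the lymphocytes. The promoters of 5 of them are printed here because the size of the TGFB effect on these genes, and for Irgm1, Irgm2 and Igtp its direction, differed with the Ifng genotype. The sequences are the 120 bases before the gene start in RefSeq's annotation of GRCm38.p6, 5′ to 3′ on the gene's strand, for Irgm1 at chr11:48871421-48871540 (minus strand), Irgm2 at chr11:58214857-58214976 (plus strand), Igtp at chr11:58199436-58199555 (plus strand), Gbp2 at chr3:142620543-142620662 (plus strand) and Gbp7 at chr3:142530216-142530335 (plus strand). Capitals mark matches on either strand to 2 short patterns, TTCNNNGAA (N is any base; the gamma-activated site, GAS) and GAAA followed after any 2 bases by a second GAAA (the interferon-stimulated response element, ISRE, which interferon regulatory factors bind).
Irgm1: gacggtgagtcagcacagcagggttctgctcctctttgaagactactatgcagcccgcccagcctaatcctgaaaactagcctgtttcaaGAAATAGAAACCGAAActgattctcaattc
Irgm2: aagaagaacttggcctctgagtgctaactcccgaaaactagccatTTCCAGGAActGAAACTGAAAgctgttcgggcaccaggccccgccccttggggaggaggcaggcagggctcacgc
Igtp: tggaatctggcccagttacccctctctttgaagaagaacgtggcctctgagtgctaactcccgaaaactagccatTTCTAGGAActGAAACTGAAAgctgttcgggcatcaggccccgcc
Gbp2: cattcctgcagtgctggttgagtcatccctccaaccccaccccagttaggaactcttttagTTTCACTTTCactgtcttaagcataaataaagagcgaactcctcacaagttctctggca
Gbp7: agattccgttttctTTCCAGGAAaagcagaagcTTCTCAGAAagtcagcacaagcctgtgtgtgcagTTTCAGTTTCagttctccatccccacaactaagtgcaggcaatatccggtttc
In Irgm2 a GAS match began 75 bases and an ISRE match 64 bases before the start, and in Igtp 45 and 34 bases before it, the same spacing. Irgm1 held overlapping ISRE matches at 30 and 24 bases before the start and no GAS match in this window. Over the 250 bases before the start, an ISRE match was found in 7 of the 8 listed GTPases with a promoter in the table and in 3.46% of 27025 genes, and both patterns in 3 of the 8 and in 0.4% of all genes. A match is a description of letters, not a site shown to be bound.

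Without Ifng, Tgfb1 loss lowered 5 of the 11 tested GTPase genes and raised 2, with a median of -0.24; it raised 4 without IFNko TGFB1 KO replicate 3, when 4 were lowered, and 4 with the deposited scaling. Irgm1, which directs the immunity-related GTPases to membranes, fell from 408, 454 and 434 to 205, 192 and 142 (-1.27 ± 0.16, adjusted p = 0.000285). Irgm2 fell from 420, 368 and 315 to 122, 108 and 141 (-1.60 ± 0.21), and Gbp6 from 429, 457 and 524 to 277, 190 and 237 (-0.99 ± 0.20), and the groups were apart for each. Iigp1, an effector GTPase, fell from 3811, 4604 and 4011 to 1478, 871 and 1521 (-1.53 ± 0.30). Igtp was 614, 631 and 492 against 282, 441 and 313 (-0.73 ± 0.21, adjusted p = 0.024, and 0.0886 with 1 of the 6 arrays left out). Gbp8 was the opposite case, at 94.9, 72.5 and 57.9 against 258, 302 and 262 (1.59 ± 0.28). Gbp2 (0.38 ± 0.18, adjusted p = 0.159) and Gbp7 (0.53 ± 0.18, adjusted p = 0.0525) did not pass.

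With intact Ifng, all 11 GTPase genes were higher in TGFB KO than in Balb/c WT liver (12.2% of all genes were), with a median of 2.77, and the difference between the TGFB effects passed below 0 for 10 of the 11, where 80 of all genes did (0.627%); leaving out any 1 of the 12 arrays left 9 or 10. The effect on Irgm1 was 1.82 ± 0.16 with Ifng and -1.27 ± 0.16 without it (adjusted p of the difference = 0.000122), and that on Gbp2 3.80 ± 0.18 with Ifng. Some other genes that interferon gamma induces also rose without it. The transcription factor Irf8 gave 200, 182 and 210 in INFko TGFB+ and 485, 767 and 517 in IFNko TGFB1 KO livers (1.48 ± 0.21), and MHC class II H2-Ab1 232, 188 and 144 against 645, 857 and 515 (1.77 ± 0.27). With Ifng the effects on these genes were 3.43 ± 0.21 and 4.53 ± 0.27, and both differences passed (adjusted p = 0.00962 and 0.0064). Of 13 other tested interferon gamma target genes 6 rose without Ifng and 13 with it, and 8 differed, or 4 with a constant of 1 in place of 16 or with the replicate number as a block. Of 9 tested class II presentation genes 7 rose without Ifng and 9 with it, and 4 differed, or 2 without INFko TGFB+ replicate 2 or TGFB KO replicate 1. With the replicate block or with male mice alone no class II difference passed, that of H2-Ab1 included, and with male mice alone 1 of the 13 did.

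Genes induced by type I interferon were higher and lower about as often as all genes. Oas1a, an antiviral enzyme, gave 126, 141 and 110 against 256, 540 and 265 (1.24 ± 0.27, adjusted p = 0.00587), while Ifit1, an antiviral RNA-binding protein, gave 112, 87.2 and 142 against 65.6, 76.6 and 65.1 (-0.85 ± 0.26, adjusted p = 0.0319). The groups were apart for both genes, in opposite directions. Of 24 tested genes 4 rose and 3 fell, where 12.7% of all genes were higher and 13.1% lower, with a median of -0.01. Leaving out INFko TGFB+ replicate 1 left 1 higher and none lower, replicate 2 left 2 and 1, and replicate 3 no lower one; without IFNko TGFB1 KO replicate 2, and with the deposited scaling, 1 was lower. With Ifng 21 of the 24 rose, and 8 of the differences passed (4 without Balb/c WT replicate 2 or 3, TGFB KO replicate 1 or 2, or INFko TGFB+ replicate 1, and 5 without INFko TGFB+ replicate 2 or 3), among them Ifit2 (0.37 ± 0.13 without and 2.93 ± 0.13 with Ifng, adjusted p = 0.000122).

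**Figure D3:**
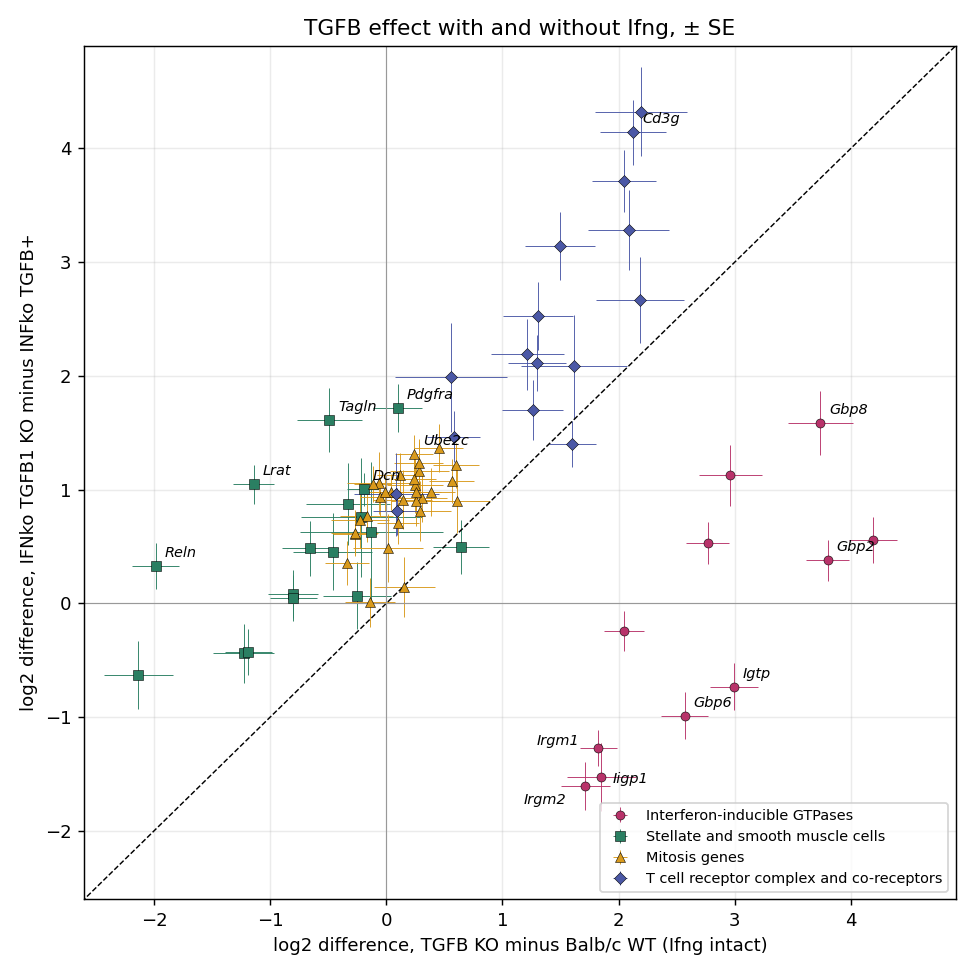
Log2 difference with Tgfb1 loss (± SE) with intact Ifng (x axis) and on the Ifng knockout (y axis) for the tested members of 4 gene lists; on the dashed line both effects are equal. The 11 interferon-inducible GTPases lie far below the line, T cell receptor genes mostly above it, and the stellate and mitosis genes mostly above and left of it.

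For some stellate cell and matrix genes the TGFB difference was above that with intact Ifng. Lrat, the enzyme that stores retinol in stellate cells, rose from 334, 340 and 360 to 713, 816 and 586 (1.05 ± 0.18, adjusted p = 0.00155), and with Ifng it fell by 1.14 (adjusted p of the difference = 0.00204). Postn, the matrix protein periostin, rose from 1488, 1252 and 1498 to 5090, 8154 and 4280 (2.13 ± 0.23), where its difference with Ifng was -0.21 ± 0.23 (adjusted p of the difference = 0.0064). Lum, the collagen-binding proteoglycan lumican, rose from 696, 750 and 804 to 1646, 3254 and 2105 (1.72 ± 0.26), and was lower with Ifng (-1.22 ± 0.26, adjusted p of the difference = 0.00356). The groups did not overlap for these genes. Pdgfra, a platelet-derived growth factor receptor of fibroblasts and stellate cells (1.72 ± 0.21), Dcn, the proteoglycan decorin (1.00 ± 0.14), and Tagln, a smooth muscle protein (1.61 ± 0.28), rose too. Their differences between the backgrounds passed, but were kept in 8, 14 and 9 of 25 alternatives, against 24 for Lrat and Lum and 23 for Postn.

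Counted over the lists, 4 of 17 tested stellate and smooth muscle genes rose and none fell, against 7 lower and none higher with Ifng (11.9% of all genes were lower there), and 5 differences passed above 0 (0.243% of all genes). That count was 2 without INFko TGFB+ replicate 1, 2 or 3, without TGFB KO replicate 2 or 3, without Balb/c WT replicate 2 and with median centring, and 3 without IFNko TGFB1 KO replicate 1, TGFB KO replicate 1 or Balb/c WT replicate 3. Of 28 tested collagens and matrix proteins 12 rose and 2 fell, where 12.7% of all genes were higher and 13.1% lower, and 6 rose with median centring. In the comparison with Ifng 2 rose and 4 fell, where 12.2% of all genes were higher and 11.9% lower. Falls there were thus about as frequent as over all genes. The difference between the effects passed above 0 for 3 of the 28. With male mice alone no difference passed above 0 in either list. Col5a2 gave 436, 482 and 536 against 1176, 1512 and 1065 (1.45 ± 0.18), but Col3a1, a main fibrillar collagen, was 6763, 6500 and 6965 against 7837, 11887 and 7982 (0.48 ± 0.21, adjusted p = 0.111). Col18a1, a basement membrane collagen that hepatocytes also make, fell from 4886, 4593 and 4966 to 1528, 824 and 2183 (-1.62 ± 0.29). The protease inhibitor Timp1 rose from 25.2, 4.3 and 14.3 to 192, 488 and 208 (3.17 ± 0.44). In the TGF-beta pathway the type II receptor Tgfbr2 (1.06 ± 0.19) and the coreceptor Tgfbr3 (0.89 ± 0.19) were higher; of 25 tested ligands, receptors, Smads and targets 8 rose and 1, Tgfb1, fell, and 1 rose with median centring, and 5 without IFNko TGFB1 KO replicate 2 or either of INFko TGFB+ replicates 2 and 3.

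Mitosis genes were higher in every mutant liver by a similar amount. Ube2c, a ubiquitin-conjugating enzyme of the anaphase-promoting complex, gave 963, 891 and 1018 in the controls and 2145, 2074 and 2102 in the mutants (1.31 ± 0.17, adjusted p = 0.000295). Cdc20, an activator of that complex, gave 679, 778 and 590 against 1531, 1608 and 1701 (1.37 ± 0.21), and the kinase Cdk1 614, 591 and 697 against 1152, 1434 and 1267 (1.13 ± 0.20). Top2a, the topoisomerase that untangles chromosomes, gave 586, 521 and 612 against 1163, 1460 and 1121 (1.21 ± 0.20). The groups were apart for each gene, and the 3 mutant signals of Ube2c lay within a narrow range. The proximal promoters of these 4 genes are shown because mitosis genes moved together: the 120 bases before the start in GRCm38.p6, for Ube2c at chr2:164769809-164769928 (plus strand), Cdc20 at chr4:118437344-118437463 (minus strand), Cdk1 at chr10:69352913-69353032 (minus strand) and Top2a at chr11:99024190-99024309 (minus strand), with matches on either strand to TTTGAA (the cell cycle homology region, CHR) and CCAAT (the CCAAT box, bound by NF-Y) in capitals.
Ube2c: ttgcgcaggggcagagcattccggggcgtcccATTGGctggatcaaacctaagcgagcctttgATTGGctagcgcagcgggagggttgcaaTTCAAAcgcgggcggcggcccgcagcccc
Cdc20: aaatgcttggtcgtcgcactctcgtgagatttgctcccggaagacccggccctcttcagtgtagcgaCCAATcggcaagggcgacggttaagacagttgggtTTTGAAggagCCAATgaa
Cdk1: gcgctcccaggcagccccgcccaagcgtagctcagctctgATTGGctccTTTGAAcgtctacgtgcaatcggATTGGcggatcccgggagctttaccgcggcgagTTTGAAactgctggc
Top2a: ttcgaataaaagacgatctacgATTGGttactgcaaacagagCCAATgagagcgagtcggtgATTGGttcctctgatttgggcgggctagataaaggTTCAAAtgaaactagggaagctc
Over 250 bases, 10 of 25 mitosis genes with a promoter in the table held TTTGAA and 19 held CCAAT, against 18.3% and 37.5% of 27025 genes. The patterns were not particular to mitosis genes. TTTGAA was found in 4 of 8 GTPases, 1 of 10 other interferon gamma inducible genes, 2 of 18 type I interferon genes and 3 of 22 DNA replication genes. CCAAT was found in 3, 8, 7 and 12 of them.

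Of 30 tested mitosis genes 26 rose and none fell, with a median of 0.96, and 22 did without IFNko TGFB1 KO replicate 1. The count was 17 without INFko TGFB+ replicate 1 and 9 with median centring, and 21 with median centring without IFNko TGFB1 KO replicate 1. The medians of the 3 mutant arrays against the control mean were 0.89, 0.96 and 0.88. With Ifng, 1 of the 30 rose and the median was 0.15, but the difference between the effects passed for Prc1 alone, a spindle protein that gave 191, 229 and 203 against 434, 535 and 396 (1.05 ± 0.16 without and -0.12 ± 0.16 with Ifng, adjusted p of the difference = 0.0386), and that call was kept in 4 of 25 alternatives. DNA replication genes moved less: 9 of 26 rose and 1 fell, with a median of 0.56, and 3 rose without INFko TGFB+ replicate 2, 5 without IFNko TGFB1 KO replicate 2 and 1 with median centring. Pcna, the sliding clamp of DNA polymerase, gave 2770, 2405 and 2896 against 3980, 4010 and 3913 (0.80 ± 0.15, adjusted p = 0.00251).

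Some hepatocyte genes were called lower and others were not. Alb, serum albumin, gave 24703, 21183 and 29532 in the controls and 22928, 19689 and 26185 in the mutants (0.19 ± 0.14, adjusted p = 0.349), and Ttr, transthyretin, 25078, 21394 and 28512 against 24982, 17160 and 24970 (0.07 ± 0.15, adjusted p = 0.791). The groups overlapped for both of these secreted proteins. They lie at the bright end, where quantile normalization leaves little room for a difference. Apoa1, at 34574.5, 29111.4 and 36005.8 against 26355.1, 20791.9 and 30265, differed by 0 after it. Alb was -0.13 with the deposited scaling and -0.37 with median centring, so these values cannot show that Alb and Ttr did not fall. By contrast Serpina6, which carries corticosteroids in blood, gave 9139, 11742 and 9214 against 816, 51.6 and 2234 (-4.27 ± 0.95, adjusted p = 0.00683). Of 15 tested hepatocyte genes 6 fell and none rose, where 13.1% of all genes were lower, and 3 fell without INFko TGFB+ replicate 1, 2 or 3 or IFNko TGFB1 KO replicate 2; the median was -0.47. In the same livers the summed signal of the 19 Kupffer cell genes was 42303, 59112 and 46011, against 14246, 14331 and 13867 in the controls; the part of a changed mix of cells in the hepatocyte values was not tested.

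**Figure D4:**
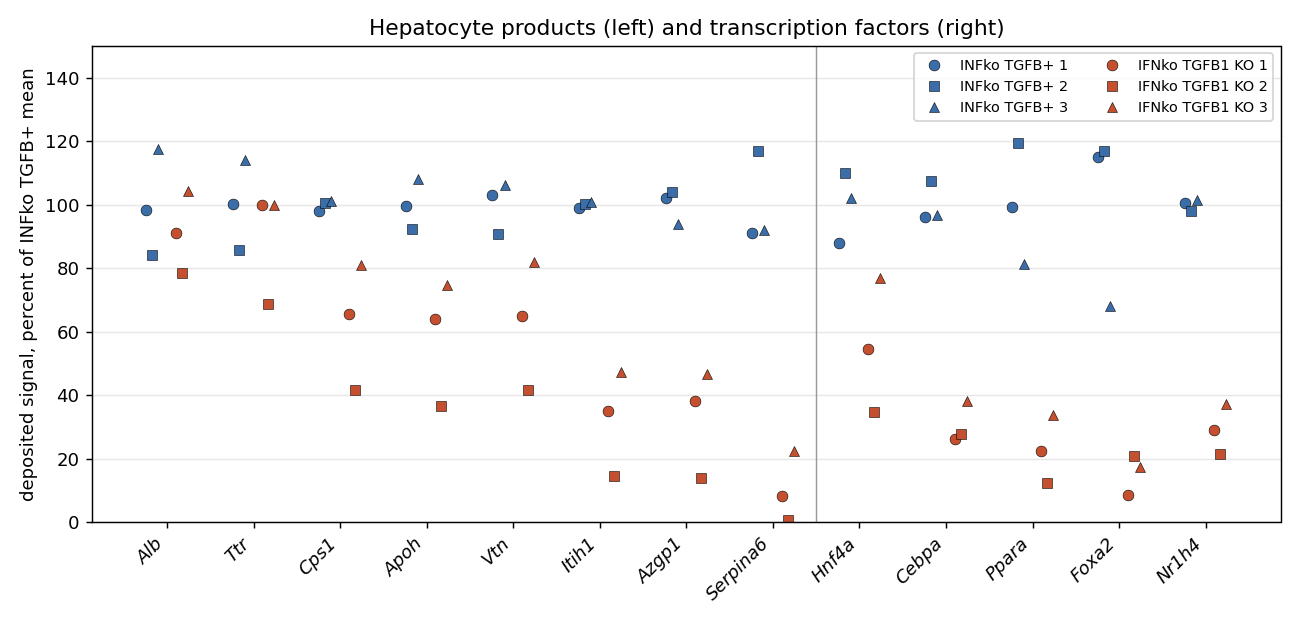
Deposited signal as percent of the mean of the 3 INFko TGFB+ arrays for hepatocyte products (left of the line) and hepatocyte transcription factors (right); blue, INFko TGFB+, red, IFNko TGFB1 KO, symbols as replicates 1 to 3. Alb and Ttr overlap between the groups. Serpina6 lies far below the controls in the mutants, with replicate 2 nearest 0, and the red points of Nr1h4, Ppara and Cebpa lie below all blue ones.

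Transcription factors that keep hepatocytes differentiated were mostly lower. Foxa2, a forkhead factor, gave 382, 389 and 227 against 28.2, 69.5 and 57.5 (-2.54 ± 0.33, adjusted p = 0.000336), and Nr1h4, the bile acid receptor FXR, 821, 799 and 829 against 238, 175 and 304 (-1.75 ± 0.20). Ppara, which drives fatty acid oxidation, gave 1899, 2282 and 1552 against 425, 232 and 645 (-2.12 ± 0.32), and Cebpa 1456, 1627 and 1465 against 398, 421 and 577 (-1.61 ± 0.30). The highest mutant signal lay below the lowest control signal for all 4. Hnf4a, at 2104, 2632 and 2439 against 1301, 826 and 1841, fell by less (-0.75 ± 0.25, adjusted p = 0.0475, and 0.145 with 1 of the 6 arrays left out). Cebpd, an inflammation-induced relative of Cebpa, rose from 116, 160 and 158 to 442, 735 and 559 (1.86 ± 0.26). Of 24 tested factors 15 fell and 2 rose, with a median of -0.94, and 9 fell without INFko TGFB+ replicate 2.

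Enzymes of drug and steroid metabolism carried the deepest falls. Cyp2b9, a P450 of the Cyp2b family, which acts on drugs and steroids, gave 1018, 1158 and 844 in the controls and 6.4, 27.8 and 4.4 in the mutants (-5.25 ± 0.33, adjusted p = 5.38e-06). Cyp1a2, a pericentral P450, gave 3742, 3902 and 3179 against 321, 13.9 and 330 (-4.44 ± 0.78), and Cyp2f2, a periportal one, 1161, 1436 and 1281 against 222, 158 and 321 (-2.44 ± 0.25). Genes of both ends of the liver lobule were thus among the falls. Of 35 tested P450 genes 24 fell and 1 rose, with a median of -1.59, but Cyp3a11, one of the brightest, was 17948, 16769 and 18706 against 12182, 5262 and 14242 (-0.71 ± 0.30, adjusted p = 0.114). Of 30 tested conjugation enzymes 20 fell and 1 rose. All 7 tested carboxylesterases, which hydrolyse esters and drugs, fell: Ces1c from 18817, 17374 and 18075 to 6277, 1577 and 8268 (-1.91 ± 0.44) and Ces1f from 139, 155 and 120 to 5.1, 4.6 and 24.5 (-2.67 ± 0.34).

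Pericentral genes counted 13 lower of 19 tested and none higher, and 7 lower without INFko TGFB+ replicate 2 and 8 without replicate 1. Cyp2e1, the ethanol-inducible P450, gave 23446, 18527 and 20865 against 6416, 1287 and 8440 (-2.17 ± 0.51, adjusted p = 0.00947), and Tbx3, a Wnt target of pericentral hepatocytes, 111, 191 and 110 against 68.5, 48.8 and 36.0 (-1.39 ± 0.23). Of 15 tested periportal genes 6 fell, or 10 with median centring, and 2 rose. Cps1, the first enzyme of the urea cycle, was 13640, 13994 and 14074 against 9116, 5779 and 11260 (-0.65 ± 0.21, adjusted p = 0.0409, and 0.129 with 1 of the 6 arrays left out), and Hal, which breaks down histidine, 1845, 1660 and 1711 against 435, 309 and 596 (-1.89 ± 0.24). Ctsc, a protease that myeloid cells also make, rose from 657, 778 and 678 to 3957, 5401 and 3995 (2.79 ± 0.22).

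Genes of tryptophan breakdown fell at most of its steps. Tdo2, its first and rate-limiting enzyme in liver, gave 10096, 9082 and 10514 against 821, 240 and 1827 (-3.75 ± 0.58, adjusted p = 0.00103). The next step, Afmid (-2.27 ± 0.33), and the later enzymes Haao (-2.00 ± 0.33), Kyat1 (-1.52 ± 0.27) and Aadat (-1.84 ± 0.34) fell, and 9 of 11 tested genes of the pathway were lower. Qprt, which makes the NAD precursor, was 2138, 2062 and 2226 against 1060, 719 and 1750 (-0.80 ± 0.29, adjusted p = 0.0664). Amino acid catabolism as listed counted 16 lower of 26 and none higher, among them Gpt, alanine transaminase, at 1339, 2146 and 1218 against 328, 204 and 233 (-2.49 ± 0.35), and Fah, the last enzyme of tyrosine breakdown, at 7853, 8181 and 7917 against 2213, 1036 and 3304 (-1.88 ± 0.33).

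Fat and bile acid metabolism was lower with a few exceptions. Of 33 tested fatty acid oxidation genes 20 fell and 2 rose, and 13 fell without INFko TGFB+ replicate 2. The number that fell was 14 with the 6 arrays fitted alone, 6 with the replicate block and 2 with male mice alone. Acads, a short-chain dehydrogenase, gave 1428, 1375 and 1338 against 454, 528 and 851 (-1.11 ± 0.20). The 2 that rose were Pdk4, which shuts off pyruvate oxidation, at 213, 225 and 144 against 535, 852 and 471 (1.59 ± 0.29), and the thioesterase Acot1, at 38.2, 70.6 and 34.6 against 224, 441 and 205 (2.11 ± 0.42). Both are known Ppara targets, and Ppara itself was lower. Of 31 tested lipid synthesis genes 14 fell and 2 rose, and with any 1 of the 6 arrays left out at most 1 rose, with Thrsp, a lipogenic nuclear protein, at 437, 681 and 294 against 48.9, 6.2 and 19.8 (-3.77 ± 0.38). Of 22 bile acid genes 12 fell and 1 rose, while 7 fell with the 6 arrays fitted alone and 6 with the replicate block. The bile acid importer Slc10a1 gave 5791, 5632 and 5225 against 1895, 666 and 2967 (-1.71 ± 0.42), and Akr1d1, a reductase of bile acid synthesis, 2049, 2058 and 1671 against 391, 85.5 and 452 (-2.78 ± 0.51).

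Secreted products fell unevenly. Of 32 tested complement and coagulation genes 25 fell and 1 rose. The number that fell was 17 without INFko TGFB+ replicate 1. It was 12 with the 6 arrays fitted alone or with the replicate block, and 10 with male mice alone. F2, prothrombin, gave 13786, 13111 and 14231 against 6442, 4739 and 8616 (-0.99 ± 0.19, adjusted p = 0.00324) and C8g, a subunit of the membrane attack complex, 5167, 5253 and 5357 against 1362, 374 and 1520 (-2.40 ± 0.44). The exception was C6, another component of that complex, which rose from 28.2, 94.4 and 62.2 to 300, 741 and 418 (2.64 ± 0.37). Of 24 tested acute phase genes 8 rose and 3 fell, where 12.7% of all genes were higher and 13.1% lower, so falls were about as frequent as over all genes. Without INFko TGFB+ replicate 2 or 3 or IFNko TGFB1 KO replicate 2, 1 fell. Orm1 gave 1.9, 20.9 and 31.3 against 185, 1370 and 1846 (4.58 ± 0.83), Saa3 81.6, 95.1 and 108 against 446, 565 and 852 (2.45 ± 0.34), and Crp 3720, 4257 and 3682 against 1460, 879 and 1985 (-1.30 ± 0.25). For Orm1 and Saa3 replicate 3 of the mutants was highest, unlike most genes. In the growth hormone axis 9 of 18 tested genes fell and none rose, with the receptor Ghr at 4284, 4596 and 4393 against 1124, 364 and 1556 (-2.20 ± 0.42) and Igfals, which stabilises IGF1 in blood, at 1577, 1469 and 1600 against 167, 25.1 and 254 (-3.58 ± 0.52).

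The mutant livers differed in how far these hepatocyte genes had moved. Against the control mean, the median over the 1673 lower genes was -1.06, -1.32 and -0.76 for IFNko TGFB1 KO replicates 1, 2 and 3, and over the 24 genes lower by at least 8-fold -3.24, -5.24 and -2.46. Replicate 2 was the farthest from the controls for 22 of those 24 genes and for 41 of the 48 genes higher by at least 8-fold. For the P450 genes the medians were -1.03, -2.50 and -1.09, and without replicate 2 only 8 genes were lower by at least 8-fold, while 50 were without replicate 3. T cell receptor genes (2.18, 2.35 and 2.17) and mitosis genes were even across the 3 livers. Replicate 2 is the female of its group. With sex as a term in the fit, 1657 genes were higher and 1680 lower. All 4 groups held the sexes in the same proportion, so this term cannot change a difference between groups. The part of sex in the distance of replicate 2 was not tested. With 1 female in each group, sex and the individual mouse cannot be told apart.

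**Figure D5:**
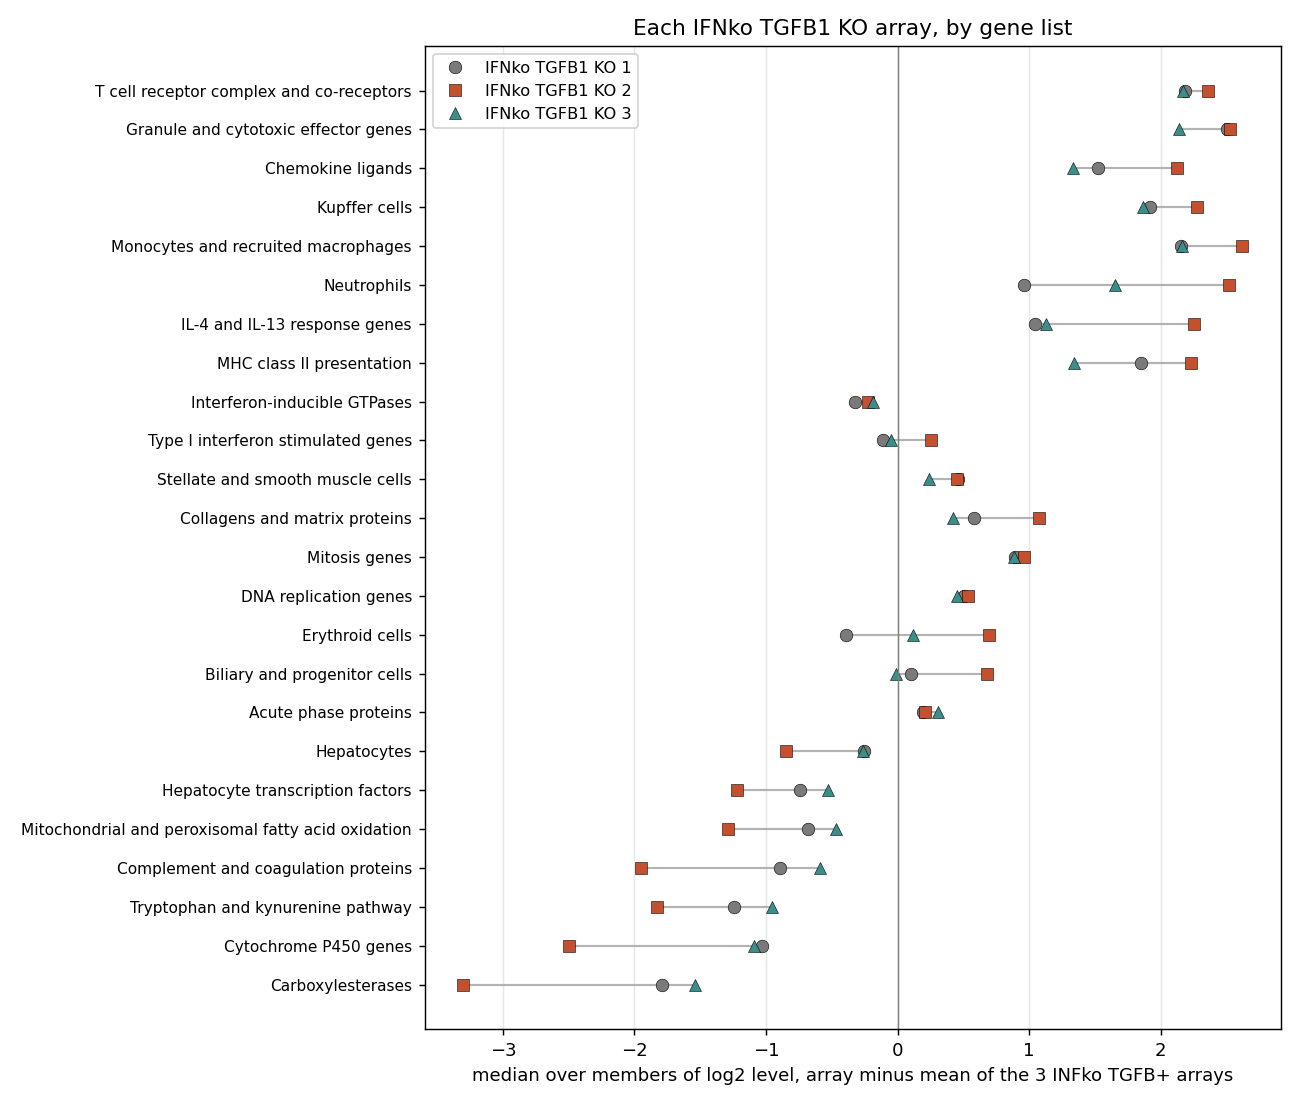
Median over the tested members of each list of the log2 level on each IFNko TGFB1 KO array minus the mean of the 3 INFko TGFB+ arrays (circle, square and triangle are replicates 1, 2 and 3). Replicate 2 lies farthest from 0 for the carboxylesterase, P450 and complement lists, while the 3 symbols fall together for the mitosis and T cell receptor lists.

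Both TGFB comparisons shared most of their calls. In the same direction in both, 957 genes were higher and 962 lower, which is 58.3% of the calls without Ifng and 62.4% of the 3077 calls with it. The difference between the effects passed for 111 genes (0.87%), 31 above and 80 below 0. It passed for 63, 46 and 60 genes without INFko TGFB+ replicates 1, 2 and 3, for 58, 66 and 54 without TGFB KO replicates 1, 2 and 3, and for 69 without Balb/c WT replicate 2. Called in opposite directions in the comparisons were 14 genes, and the difference itself passed for 13 of them, all but Ifih1 (adjusted p = 0.0781). Of the 14, Irgm1, Irgm2, Igtp, Iigp1, Gbp6, Ifit1, Usp18, Herc6, Gdap10 and Gm4951 were lower without and higher with Ifng, as was Ifih1, while Lrat, Lum and Capn6 were higher without and lower with it. Usp18, Herc6, Gdap10 and Gm4951 are named for this count and not by the rule for named genes.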

How the data were processed

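Per the labels' protocols, total liver RNA came from a Trizol extraction and was biotin-labelled in 1 cycle. The deposited values are linear signal intensities for 45101 probe sets on each of 12 arrays; their mean without the lowest and highest 2 percent was 150.0 on every array, while neither the algorithm behind the signal nor its target value is given in the sources used here. Of the probe sets, 34958 carried a single gene symbol, 932 several and 9211 none.

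Signals were transformed as log2(signal + 16) and quantile normalized over the 12 arrays. The dimmest probe sets, up to the 40th percentile of the mean log2 level (5.25), were left out, and the probe set with the highest mean stood for each gene, which left 12755 genes. A model with 4 groups was fitted in limma 3.58.1 (R 4.3.3), with 2-sided moderated tests and Benjamini-Hochberg adjustment, and was tested on simulated data. Each group had 3 arrays, a number that limits the precision. The spread within groups was estimated over all 4 groups, so the Balb/c WT and TGFB KO mice also enter the standard errors and p-values. Non-overlap of groups was counted on normalized values.

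The 58 gene lists held 1196 genes, of which 1074 had a probe set and 988 were tested. The members and lists were chosen with earlier results of these data known, so lists are described by counts and medians. Genes were named by a rule: Tgfb1 and Ifng, the 20 largest rises and falls without overlap, up to 5 members of each list by p-value and its 2 brightest, the 12 smallest p-values of the difference of effects in each direction, and genes with a printed promoter. Promoters are RefSeq's, on GRCm38.p6. Alternatives changed the scaling, the added constant, the filter, the choice of probe set, the arrays in the fit, array weights, a replicate block and each array in turn; sex as a term, male mice alone and median centring without IFNko TGFB1 KO replicate 1 were added after seeing the data.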

Additional observations from a re-analysis of the deposited data

Results flagged for a closer look

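For the genes below the effect of Tgfb1 loss differed between the Ifng knockout and intact Ifng by a test of the difference itself (limma, adjusted over all genes tested). Values are the effect without Ifng minus the effect with it, on the log2 scale.

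Among interferon-inducible GTPases the differences were -3.72 for Igtp, -3.56 for Gbp6, -3.42 for Gbp2, -3.38 for Iigp1, -3.32 for Irgm2, -3.10 for Irgm1, -2.23 for Gbp7 and -2.15 for Gbp8. Other genes that interferons induce were also below 0, at -4.50 for Cxcl9, -2.77 for H2-Ab1, -2.55 for Ifit2, -2.46 for Herc6, -2.41 for Usp18, -2.08 for Ifit1 and -1.95 for Irf8. Gm4951 (-2.99), Gdap10 (-2.44) and Cyp2f2 (-1.93) completed the genes below 0.

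Above 0 were the matrix and stellate genes Lum (2.94), Postn (2.34), Lrat (2.19), Tagln (2.10), Pdgfra (1.62) and Dcn (1.195). The T cell genes Cxcr6 (2.29) and Cd3g (2.01) were also above 0, as were Il13ra2 (3.14), Ly6d (2.59), Capn6 (2.12) and the mitosis gene Prc1 (1.17). With each of the 12 arrays left out in turn, the call was kept in 2 fits for Pdgfra, Tagln and Prc1, in 3 for Cd3g and Cyp2f2, in 4 for Gbp8, in 5 for Cxcr6, in 6 for Dcn, Ifit1 and Ly6d, in 9 for Gdap10 and in 11 for Capn6, and in all 12 for the other 18 genes.

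Probe sets with no symbol or several were not part of the gene comparison. Of 4076 that passed the same filter, 190 were higher and 174 lower in the IFNko TGFB1 KO livers.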

How the results depend on the processing

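Of 126 called genes named in the text, none changed direction in any alternative; 116 to 126 kept their call, of 116 to 126 that were tested, except with male mice alone, where 105 did. The comparison made 3292 calls, and refits with 1 of its 6 arrays left out made 2267 to 3520 (1174 to 1678 higher, 1089 to 1842 lower); 1969 of the 3292 were kept in each of these 6 refits. With its 6 arrays fitted alone, the comparison made 2721 calls, 1416 higher and 1305 lower. In that fit 6 pericentral genes were lower in place of 13 and 2 hepatocyte genes in place of 6, while 11 acute phase genes were higher in place of 8. Median centring gave 988 higher, and male mice alone, with fewer samples, 1235 calls, 663 higher and 572 lower. The replicate block gave 1934 calls, 1023 higher and 911 lower, and 29 for the difference of TGFB effects, 4 above and 25 below 0. Deviations of arrays with the same number, the unnumbered one taken as 1, correlated at 0.00016, -0.055 and -0.0039 for numbers 1, 2 and 3. Those of arrays with different numbers correlated at -0.054 to 0.056. With 3 arrays per group and 1 number assigned, these values cannot decide whether the numbers pair mice.

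The difference of TGFB effects passed for 46 to 165 genes with 1 of 12 arrays left out (7 to 55 above and 39 to 112 below 0). It passed for 57 with a constant of 1 (14 above, 43 below), 212 with 64 (68 above, 144 below) and 10 with male mice alone (1 above, 9 below). Above 0 it passed for 9 with median centring, 13 with median centring without IFNko TGFB1 KO replicate 1, 17 with no filter and 50 with a filter at the 60th percentile. The cause of these shifts was not tested.

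Genes that changed sign were not called in the comparison. Alb was -0.13 with the deposited scaling, -0.37 with median centring and -0.20 with that centring without IFNko TGFB1 KO replicate 1. Under the same settings Slc40a1 was -0.0035, -0.25 and -0.0076, and Ttr -0.17, -0.42 and -0.33. Ttr was also -0.16 as the mean of its probe sets, -0.37 without the probe sets marked as less specific and -0.019 without IFNko TGFB1 KO replicate 1. With 1 array left out Ttr ran from there to 0.18, Prg2 from -1.85 to 1.71 (without IFNko TGFB1 KO replicates 2 and 1) and Prss2 from -1.63 to 0.28 (without INFko TGFB+ replicates 3 and 2). Prg2 was 0.11 with a constant of 64, 0.68 with the replicate block and 1.55 with median centring without IFNko TGFB1 KO replicate 1. Cxcl9 was -0.063 as the mean of its probe sets.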

Other observations

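Cell death and iron genes were not described above. Of 26 tested cell death genes 12 rose, or 7 with median centring, and 1 fell. Tnfrsf12a, the TWEAK receptor Fn14, gave 129, 128 and 214 in the INFko TGFB+ livers and 814, 1210 and 748 in the IFNko TGFB1 KO livers (2.49 ± 0.28), Casp4, an inflammatory caspase, gave 20.9, 33.1 and 23 against 148, 265 and 228 (2.24 ± 0.26), and Ripk3, the kinase of necroptosis, 58.2, 56.0 and 52.0 against 229, 381 and 204 (1.85 ± 0.27). Of 17 tested iron genes 5 rose and 3 fell, where 12.7% of all genes were higher and 13.1% lower. Without INFko TGFB+ replicate 2 or 3 or IFNko TGFB1 KO replicate 2, 3 rose, and with median centring 2 did. Hamp2, a hepcidin gene, gave 313, 467 and 491 against 107, 68.2 and 52.1 (-2.41 ± 0.44), and Hjv, the BMP coreceptor that raises hepcidin, 626, 690 and 660 against 196, 131 and 275 (-1.75 ± 0.24).

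INFko TGFB+ replicate 2 carried signal of pancreas genes. Ctrb1, a digestive protease, gave 6.6, 1260 and 21.7 in the INFko TGFB+ livers and 78.8, 2.9 and 12.4 in the IFNko TGFB1 KO livers, Prss2, a trypsinogen, 57.3, 711 and 30.7 against 152, 45.9 and 28.8, and Pnliprp1, a pancreatic lipase relative, 115, 2064 and 92.7 against 26.7, 3.6 and 23. Pnliprp1 was among the 20 largest falls (-3.38 ± 0.97, adjusted p = 0.0243), and its adjusted p reached 0.0844 with 1 of the 6 arrays left out.

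The same array was low for Afp, the fetal serum protein alpha-fetoprotein, at 10122, 2660 and 10062 in the INFko TGFB+ livers and 18516, 16209 and 18855 in the IFNko TGFB1 KO livers (1.60 ± 0.55, adjusted p = 0.0522). Mest, an imprinted growth gene, rose from 625, 638 and 728 to 1027, 1371 and 1315 (1.01 ± 0.15), and Cdkn1c, an imprinted inhibitor of the cell cycle, fell from 1047, 852 and 1177 to 335, 176 and 558 (-1.59 ± 0.35). S100a4, a calcium-binding protein of motile cells, rose from 15.1, 10.8 and 29.5 to 1155, 2201 and 792 (5.30 ± 0.46), and Ly6d from 53.7, 18.3 and 88.6 to 906, 1143 and 918 (3.998 ± 0.33, against 1.40 ± 0.33 with intact Ifng).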
